A study of Rattus norvegicus with 8 samples.

Results

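Aminoacyl-tRNA synthetase genes were followed through cultured rat spermatogonia and a spermatocyte-enriched germ cell fraction. The genes were taken from the deposited count table by symbol: any capital letter followed by ars or ars2, together with Farsa, Farsb, Eprs, Aimp1 and Aimp2. Of 16764 gene symbols in the table, 37 met this rule. The rule reads symbols and no measured value, but it was chosen with earlier results of these data known. They code for 22 cytosolic proteins, 10 of them parts of the multisynthetase complex and 12 outside it, and for 15 mitochondrial enzymes. All 37 passed the filter on low counts, which kept 12210 genes for testing. In RefSeq (assembly GRCr8), 19 of them carried their symbol as the current name and 17 as an older name, and Gars had no match.

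An aminoacyl-tRNA synthetase spends ATP to join an amino acid to the tRNAs that read its codons, and so supplies every translating ribosome. Separate nuclear genes serve the cytosol and the mitochondria for most amino acids, with symbols ending in 2 for the mitochondrial enzyme. Glycine and lysine are exceptions, since Gars and Kars each code for both forms. In animal cells several cytosolic synthetases are held in one large complex by the scaffold proteins Aimp1, Aimp2 and Eef1e1. Many cytosolic synthetase genes are known targets of ATF4, the transcription factor of the integrated stress response, which is induced when uncharged tRNA accumulates and which binds C/EBP-ATF response elements.

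The study sequenced RNA from 3 groups of Brown Norway rat germ cells, with 2 libraries in each. Undifferentiated spermatogonia (USg) were a spermatogonial stem cell line expanded in SG medium, with 0 h in SD medium. Differentiating spermatogonia (DSg) were the same line 7 days after plating on laminin, including 120 h in SD medium, to which neuregulin-1 and all-trans-retinoic acid are added. The spermatocyte-enriched group (Spc) consisted of primary germ cells from testis cell culture that laminin did not retain. They had been depleted of adherent cells on plastic, on collagen-I and on laminin, and were kept for 2.5 days in medium with 10% serum. USg and DSg thus rest on a single cell line, whereas Spc differ from both in source, medium and selection as well as in stage, and these cannot be told apart. The labels place USg extraction at day 0 in one field and carry T120 in the titles of both line groups, so it is unsettled how the culture times of the line groups relate. Separate animals are not stated for the Spc libraries, and p-values measure only the spread between these samples, which may be technical. A further 2 samples of anti-Foxa2 immunoprecipitation were not analysed here.

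Total counts ran from 2657291 to 5697165 per library, and counts of the 37 genes from 11970 to 32960. Ribosomal RNA took 7.81% of counts in the first USg library and 12.4% in the first DSg library, against at most 0.734% in the other 4. The second DSg library held counts for 96.7% of 1044 olfactory receptor genes, against 23.4% to 64.1% in the others. CPM are read counts scaled to a common library size. The summed level of 11 spermatocyte markers was 655 to 1157 CPM in USg, 778 to 1383 in DSg and 8083 to 8856 in Spc. The 6 markers of differentiating spermatogonia summed to 455 to 728 CPM in USg, 1131 to 1149 in DSg and 346 to 349 in Spc. In DSg against USg, 3 of these 6 lay above 0 and 3 below. Only Kit passed there, with 597 and 562 CPM in DSg, against 86.1 and 63.2 CPM in USg. That is 16.7% of the 6, against 0.565% of all tested genes. The 8 markers of undifferentiated spermatogonia summed to 1623 to 1842 CPM in USg, 314 to 319 in DSg and 183 to 203 in Spc. Of these 8, 7 were lower in Spc than in USg and Id4 was higher (log2 1.42 ± 0.33, adjusted p = 0.0111). Id4 had 140 and 118 CPM in Spc, 49.0 and 47.4 in USg and 19.8 and 13.2 in DSg, and so made up most of the Spc sum. Summed Sertoli and stromal markers were highest in Spc. The 10 Sertoli markers summed to 414 to 472 CPM in USg, 217 to 254 in DSg and 1123 to 1389 in Spc, with 6 of 9 tested genes higher in Spc than in USg and 7 of 9 higher than in DSg. The 10 peritubular and stromal markers summed to 267 to 528 CPM in USg, 249 to 318 in DSg and 2757 to 2885 in Spc, with 8 of 9 tested genes higher in Spc in both comparisons. The 7 Leydig markers summed to 5.40 to 5.88 CPM in USg, 10.9 to 25.3 in DSg and 181 to 185 in Spc. Star, a gene of steroid synthesis, made up most of the Spc sum at 159 and 169 CPM. Star and Nr5a1, 2 of the 4 tested genes, were higher in Spc both against USg and against DSg. Nr5a1 had 18.1 and 10.7 CPM in Spc, 0 and 0.356 in USg and 1.21 and 4.04 in DSg. Cyp11a1 was lower in Spc than in DSg (0.788 and 1.09 against 6.06 and 5.92 CPM, log2 -2.64 ± 0.78, adjusted p = 0.0356), and Insl3 was at 0 in both USg libraries. The 8 macrophage markers summed to 43.1 to 60.2 CPM in USg, 26.7 to 54.9 in DSg and 93.8 to 120.0 in Spc, with 5 of 7 tested genes higher in Spc than in USg and Mrc1 below USg in both Spc libraries. The 5 endothelial markers summed to 138 to 210.3 CPM in USg, 62.2 to 80.5 in DSg and 32.9 to 44.4 in Spc, with 3 lower and 1 higher in Spc than in USg. No Sertoli or stromal marker in the table was at 0 in both libraries of any group, and the part of somatic cells in the Spc results was not tested.

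All levels are CPM scaled by TMM factors. They are not divided by transcript length, so they compare 1 gene between libraries and not 1 gene with another. Summed over the 22 cytosolic genes, the level was 4634 and 5374 CPM in USg, 4421 and 3585 in DSg and 4629 and 4970 in Spc. Both DSg libraries thus lay below the other 4 with TMM scaling. The TMM factor was 1.238 in the second DSg library, against 0.9328 to 0.9876 in the others, and the order of the sums depends on it. The 15 mitochondrial genes summed to 395 and 495 CPM in USg, 416 and 486 in DSg and 461 and 431 in Spc, and the groups overlapped. Mitochondrial genes took 7.85 and 8.43% of the 37 genes' counts in USg, 8.60 and 11.9% in DSg and 9.06 and 7.99% in Spc. The second DSg library held the highest share.

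Aars, alanyl-tRNA synthetase, had 194 and 237 CPM in USg, 214 and 192 CPM in DSg and 260.5 and 263 CPM in Spc. Its 6 values lay within a narrow range, with both Spc libraries above the other 4. In GRCr8 it overlaps Ddx19b, and without a strand setting shared reads are uncertain. Ddx19b was likewise highest in Spc, with 233 and 298 CPM in USg, 143 and 83.2 in DSg and 424.5 and 455 in Spc. Eprs, the glutamyl-prolyl enzyme that joins a pair of activities in 1 protein, had 534 and 382 CPM in USg, 690.5 and 635 CPM in DSg and 548 and 665 CPM in Spc. All 4 DSg and Spc libraries lay above both USg libraries. Gars, the glycyl enzyme, had 489.7 and 364 CPM in USg, 314 and 206 CPM in DSg and 264 and 262 CPM in Spc. Both USg libraries lay above the other 4. Kars, lysyl-tRNA synthetase, had 247 and 305 CPM in USg, 239 and 155 CPM in DSg and 351 and 367 CPM in Spc. Sars, seryl-tRNA synthetase, had 279 and 658 CPM in USg, 197 and 213 CPM in DSg and 360.1 and 440.0 CPM in Spc. For Sars the USg libraries lay so far apart that they bracketed both Spc libraries. Ears2, mitochondrial glutamyl-tRNA synthetase, was the most thinly counted gene of the 37, with 4 to 21 reads per library and 1.54 and 1.96 CPM in USg, 2.02 and 3.50 CPM in DSg and 4.14 and 4.14 CPM in Spc.

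**Figure D1:**
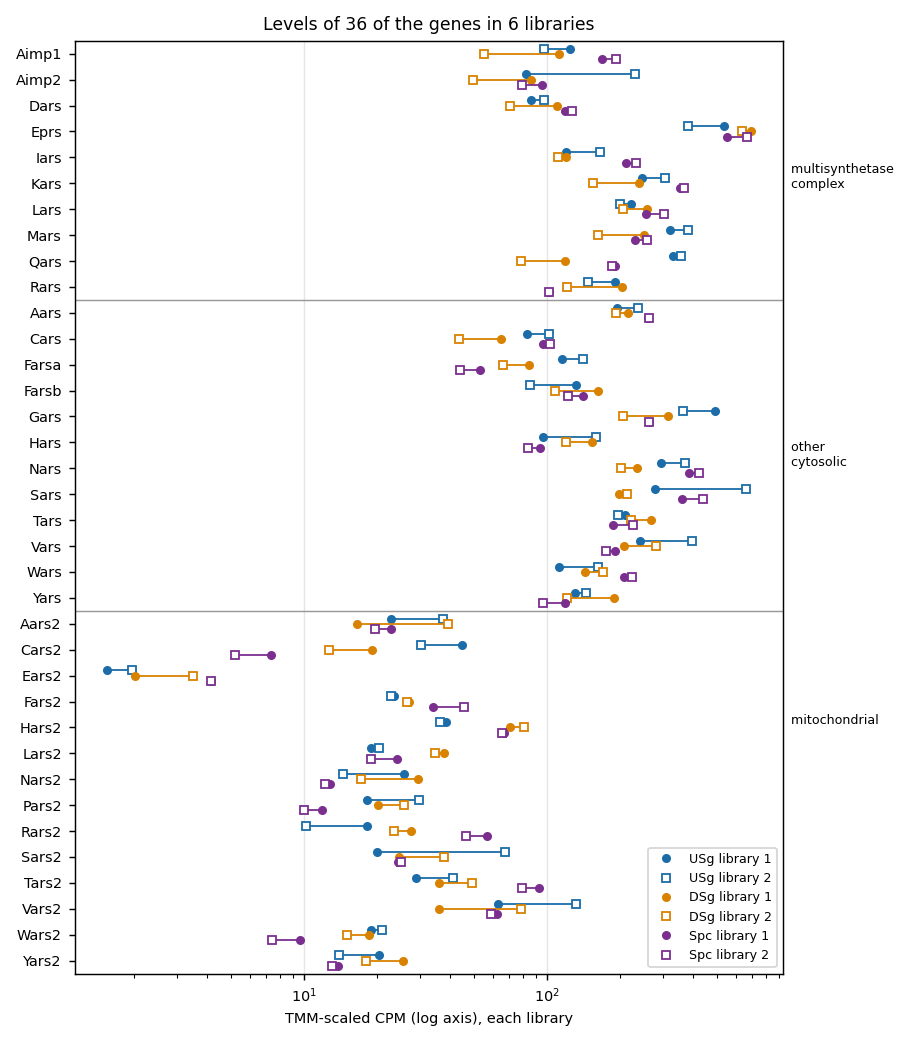
TMM-scaled CPM (log axis) of 36 of the 37 genes in the 2 libraries of USg (blue), DSg (orange) and Spc (purple), with a line joining the libraries of a group, ordered by complex members, other cytosolic and mitochondrial genes. The Spc libraries lie close together for most genes, and Qars in DSg (118 and 78.1 CPM) and Cars2 in Spc (7.29 and 5.22 CPM) stand to the left of their USg values.

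Replicates were closest in Spc. The SD of the log2 ratio of library 2 to library 1 over the 37 genes was 0.622 in USg, 0.528 in DSg and 0.214 in Spc, against 0.95, 0.947 and 0.434 over all tested genes in the same order of groups. In USg, 4 of the 37 genes differed by more than 2-fold between libraries: Sars2 was 3.34 times, Aimp2 2.81 times, Sars 2.36 times and Vars2 2.10 times as high in the second library as in the first. In DSg, 3 did: Aars2 was 2.37 times and Vars2 2.16 times as high in the second library, while Aimp1 stood at 0.491 times its level in the first. In Spc none did. In DSg, 27 of the 37 genes were higher in the first library.

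Promoters from RefSeq (GRCr8, 250 bases before to 50 after each gene's start) were found for 33 of the 37 genes. They were searched on both strands for the C/EBP-ATF element core TGATGCAA, which reads TTGCATCA on the other strand. It occurred in 7 of the 33 (21.2%), against 266 of 33469 promoters of all genes (0.795%). All 7 belonged to cytosolic synthetases, 7 of 19 with a promoter, against 0 of 14 mitochondrial genes. They were 7 of the 11 synthetases listed as ATF4 targets with a promoter and 0 of the 8 other cytosolic genes. Among 24 other genes listed as ATF4 targets, with ATF4 itself, 3 held the core (Chac1, Nupr1 and Pycr1). The 7 synthetase genes were Aars, Cars, Iars, Mars, Nars, Tars and Yars. The stretches of 6 of them, in which the element stands in capitals, are shown because they mark off a subset of the 37 by sequence alone, 5′ to 3′ on the strand of the gene.
Cars: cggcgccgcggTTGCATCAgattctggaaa
Iars: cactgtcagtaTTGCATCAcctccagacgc
Mars: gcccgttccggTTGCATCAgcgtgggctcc
Nars: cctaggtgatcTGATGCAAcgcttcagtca
Tars: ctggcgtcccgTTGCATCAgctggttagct
Yars: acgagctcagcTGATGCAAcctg
They lie at chr1:208225334-208225363 (minus strand) for Cars and chr17:15193658-15193687 (minus strand) for Iars. Those of Mars and Nars lie at chr7:65023752-65023781 (minus strand) and chr18:60275778-60275807 (minus strand), and those of Tars and Yars at chr2:62114811-62114840 (minus strand) and chr5:146820190-146820212 (plus strand). The first base of the element lay 27 bases before the start in Tars, 24 in Iars, 17 in Mars and 14 in Nars, and at base 18 of the transcript in Cars and base 39 in Yars. The E-box CACGTG, the site of MYC and related factors, occurred in 6 of the 33 promoters (18.2%; Aars, Ears2, Farsb, Iars, Tars and Vars), against 2148 of all (6.42%). The cAMP response element TGACGTCA occurred in 0 of the 33, against 612 of all (1.83%). No match overlapped another, and a match says only that these letters are in the window.

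**Figure D2:**
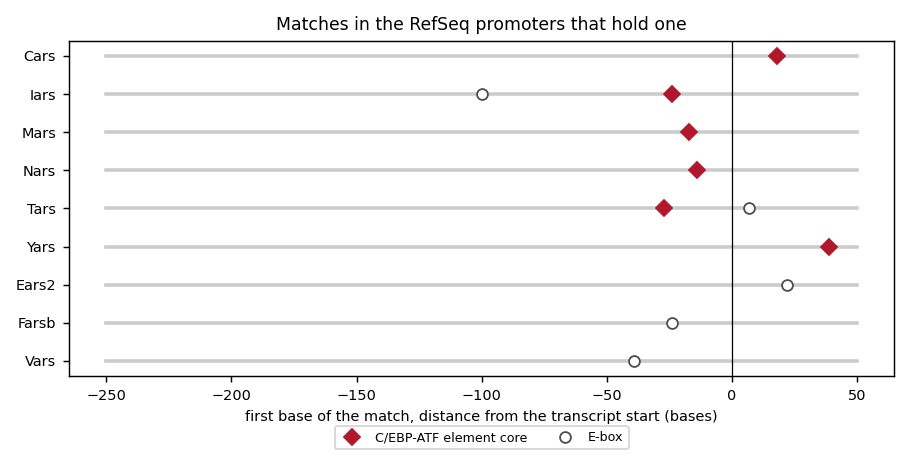
Position of the first base of each match to the C/EBP-ATF element core (red diamonds) and the E-box (open circles) in the promoter windows (grey lines, from 250 bases before to 50 after the transcript start) of 9 genes that hold either. The element lies between 27 bases before and 39 bases after the start in the 6 genes drawn with it.

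Between DSg and USg, Qars fell and none of the 37 genes rose. Qars is the glutaminyl-tRNA synthetase of the multisynthetase complex. Qars had 118 and 78.1 CPM in DSg, against 329 and 356 CPM in USg. Both DSg libraries lay far below both USg libraries. The mean was 98.2 ± 28.5 CPM in DSg and 342 ± 18.8 CPM in USg (SD, n = 2 each), a log2 fold change of -1.80 ± 0.32, adjusted p = 0.0288 by edgeR's quasi-likelihood test. In bulk RNA, fewer cells of a type and less RNA per cell cannot be told apart, and this holds for every comparison here.

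The call of Qars was lost with the first DSg library left out (log2 -2.32, adjusted p = 0.108), with the second left out (-1.53, adjusted p = 0.198) and in a fit of the 4 libraries alone (-1.78, adjusted p = 0.0887). With a DSg library left out, the lone one is assumed to vary like the other groups. Without the 2 libraries richest in ribosomal RNA, a choice made after the data were seen, it was -2.33 (adjusted p = 3.38e-07), with the spread taken from the Spc libraries alone. Of the 37 genes 0 rose, against 0.565% of all tested genes, and 1 (2.70%) fell, against 1.92% of all. The share that fell is thus near the background and is no result about the 37 as a group. At an unadjusted p under 0.05, 9 of the 37 passed, against 2344 of the 12210.

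The other 36 genes did not pass; values in brackets are log2 fold changes ± SE, here and in the later comparisons. The 10 genes of the complex had a median log2 difference of -0.36, with 8 below 0 (6 with upper quartile or total-count scaling). Aimp1, the scaffold protein from which the cytokine EMAPII is cut, had 112 and 55.2 CPM in DSg, against 125 and 97.6 CPM in USg (-0.41 ± 0.38, adjusted p = 0.594). The first DSg library lay between the USg libraries and the second below them. Aimp2, the other scaffold of the rule, had 86.1 and 49.5 CPM in DSg, against 82.2 and 231 CPM in USg (-1.22 ± 0.50, adjusted p = 0.232), and the groups overlapped. Iars, isoleucyl-tRNA synthetase, had 119 and 112 CPM in DSg, against 119.6 and 166 CPM in USg (-0.31 ± 0.30, adjusted p = 0.61). Kars and Eprs differed by -0.49 and 0.53 (adjusted p = 0.436 and 0.372). Kars, Iars and Mars were lower in both DSg libraries than in both USg libraries, and Eprs was higher.

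The 12 cytosolic genes outside the complex had a median difference of -0.24, with 5 above 0 and 7 below (6 and 6 under either of those scalings). Sars was lower in both DSg libraries than in both USg libraries (-1.20 ± 0.41, adjusted p = 0.168). Gars, Nars (asparaginyl-tRNA synthetase) and Farsa, the catalytic subunit of the cytosolic phenylalanyl enzyme, also had both DSg libraries below both USg libraries, with log2 differences of -0.71, -0.60 and -0.78 (adjusted p = 0.271, 0.29 and 0.23). None passed. Aars differed by -0.09 ± 0.28, adjusted p = 0.9, and turned to 0.06 with upper quartile and 0.05 with total-count scaling (adjusted p = 0.926 and 0.937).

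The 15 mitochondrial genes had a median difference of 0.21, with 9 above 0 and 6 below (11 and 4 under either). Hars2, mitochondrial histidyl-tRNA synthetase, had 70.7 and 80.8 CPM in DSg, against 38.6 and 36.3 CPM in USg. The groups did not overlap, but the difference did not pass (1.02 ± 0.30, adjusted p = 0.123). Lars2, the mitochondrial leucyl enzyme, had 37.6 and 34.7 CPM in DSg, against 18.9 and 20.3 CPM in USg (0.88 ± 0.34, adjusted p = 0.217). Its groups did not overlap either. Cars2, the mitochondrial cysteinyl enzyme, had 19.0 and 12.7 CPM in DSg, against 44.8 and 30.3 CPM in USg (-1.25 ± 0.42, adjusted p = 0.161), with both DSg libraries below both USg libraries.

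Over the 37 genes, the 2 libraries of DSg lay above both of USg in 7 (18.9%), against 21.2% of all tested genes, and below both in 11 (29.7%), against 21.1% of all. The median log2 difference of the 37 was -0.06 and that of all genes 0.0068. With upper quartile scaling the median of the 37 turned to 0.10 and that of all genes to 0.15, and with total-count scaling to 0.08 and 0.16. Relative to all genes, the median of the 37 was lower by 0.07 with TMM scaling, by 0.06 with upper quartile scaling and by 0.08 with total counts.

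**Figure D3:**
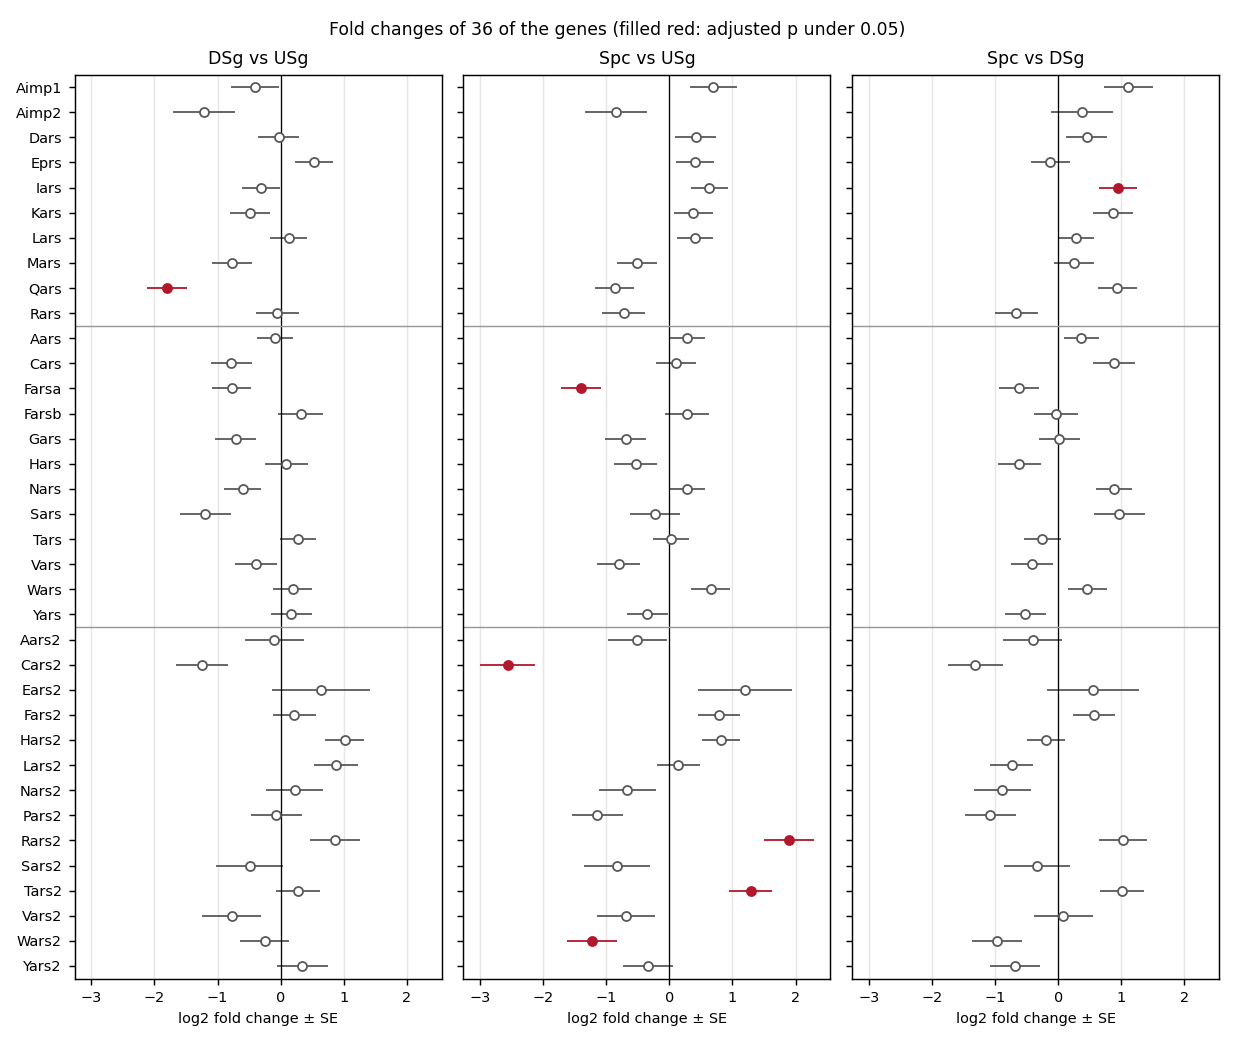
Log2 fold change ± SE of 36 of the 37 genes in DSg against USg (left), Spc against USg (middle) and Spc against DSg (right), with filled red points for genes at an adjusted p under 0.05 and grey lines between complex members, other cytosolic and mitochondrial genes. Qars is the red point on the left (-1.80), Iars the one on the right (0.94), and 4 of the 5 in the middle are mitochondrial genes. Those 4 make 13.3% higher and 13.3% lower of the 15 mitochondrial genes, against 17.9% and 16.6% of all tested genes.

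Between Spc and USg, 5 synthetase genes changed, 4 of them mitochondrial, and they went in both directions. Rars2 and Tars2, the mitochondrial arginyl and threonyl enzymes, rose. Cars2 and Wars2, the mitochondrial cysteinyl and tryptophanyl enzymes, fell, as did Farsa. No gene of the multisynthetase complex passed the test. Of the 37 genes, 2 (5.41%) rose, against 17.9% of all tested genes, and 3 (8.11%) fell, against 16.6% of all. Of the 15 mitochondrial genes, 2 (13.3%) rose and 2 (13.3%) fell, both shares below those of all tested genes. The 4 mitochondrial calls are thus no result about the mitochondrial genes as a group. At an unadjusted p under 0.05, 10 of the 37 passed, against 5548 of the 12210.

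Rars2 had 56.8 and 46.6 CPM in Spc, against 18.1 and 10.2 CPM in USg. Both Spc libraries lay well above both USg libraries, and the means were 51.7 ± 7.19 CPM in Spc and 14.1 ± 5.65 CPM in USg (SD, n = 2 each). The log2 fold change was 1.89 ± 0.40, adjusted p = 0.00657, and it passed in all 17 alternative fits in which it was tested. In GRCr8, Rars2 overlaps Orc3 and Slc35a1, and with no strand setting given its reads cannot be told from theirs where the genes coincide. Orc3 differed by 0.25 ± 0.36, adjusted p = 0.615, and Slc35a1 by -0.89 ± 0.55, adjusted p = 0.237.

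Tars2 had 92.8 and 78.8 CPM in Spc, against 28.9 and 41.0 CPM in USg (1.29 ± 0.35, adjusted p = 0.0202). The groups did not overlap, and its mean was 85.8 ± 9.91 CPM in Spc and 34.9 ± 8.50 CPM in USg (SD, n = 2 each). Its call was lost without the first USg library (adjusted p = 0.0706), the first Spc library (0.228) or the second (0.108).

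Cars2 had 7.29 and 5.22 CPM in Spc, against 44.8 and 30.3 CPM in USg. Even the lower USg library stood far above the higher Spc library, and the means were 6.26 ± 1.46 CPM in Spc and 37.5 ± 10.2 CPM in USg (SD, n = 2 each). The log2 fold change of -2.57 ± 0.44, adjusted p = 0.00247 had the largest size of any of the 37 in any of the 3 comparisons, and it passed in all 17 alternative fits. Wars2 had 9.66 and 7.40 CPM in Spc, against 18.9 and 21.0 CPM in USg (-1.23 ± 0.40, adjusted p = 0.0412). Its values did not overlap, yet the call held in 11 of the 17 alternatives, and was lost among others in DESeq2 (adjusted p = 0.0647), without the second USg library (0.081) and without the first or the second Spc library (0.2 and 0.39).

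Farsa had 53.2 and 44.0 CPM in Spc, against 116 and 140.1 CPM in USg (-1.40 ± 0.32, adjusted p = 0.00977). Every Spc value lay below every USg value. The call was lost without the first Spc library (adjusted p = 0.114) or the second (0.216). Farsb, the partner subunit of the same enzyme, had 141 and 122 CPM in Spc, against 132 and 85.1 CPM in USg (0.28 ± 0.35, adjusted p = 0.562), and its groups overlapped.

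Among the 32 genes that did not pass, differences ran from -1.14 to 1.20, and 4 had an adjusted p between 0.0562 and 0.1. Pars2, the mitochondrial prolyl enzyme, had 11.8 and 10.0 CPM in Spc, against 18.1 and 29.7 CPM in USg (-1.14 ± 0.40, adjusted p = 0.0562), and its groups did not overlap. Qars had 189.8 and 186 CPM in Spc, against 329 and 356 CPM in USg (-0.87 ± 0.31, adjusted p = 0.0566), with the 2 Spc libraries close together and below both USg libraries. It passed in 8 of the 17 alternatives. Hars2 had 66.6 and 65.3 CPM in Spc, against 38.6 and 36.3 CPM in USg (0.82 ± 0.30, adjusted p = 0.0652), with no overlap. Vars, the valyl enzyme, had 191 and 174 CPM in Spc, against 242 and 396 CPM in USg (-0.81 ± 0.34, adjusted p = 0.0944), with no overlap and a wide gap between the USg libraries.

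By group, the 10 complex genes had a median difference of 0.39, with 6 above 0 and 4 below, and none passed. The 12 other cytosolic genes had a median of -0.11 and 1 call, and the 15 mitochondrial genes a median of -0.34 and 4 calls. The median of all tested genes was -0.04. Aimp1, Iars and Kars lay above both USg libraries in both Spc libraries, by 0.70, 0.63 and 0.38 (adjusted p = 0.183, 0.131 and 0.376). Aars and Nars differed by 0.28 and 0.28 (adjusted p = 0.469 and 0.471), and Gars by -0.70 (adjusted p = 0.124). The 2 Spc libraries lay above both USg libraries in 14 of the 37 genes (37.8%), against 37.1% of all tested genes, and below both in another 14 (37.8%), against 35.3% of all.

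Between Spc and DSg, Iars rose and no gene fell. Iars had 211 and 232 CPM in Spc, against 119 and 112 CPM in DSg. Both groups were tight and did not overlap, with means of 222 ± 14.6 CPM in Spc and 115 ± 5.45 CPM in DSg (SD, n = 2 each). The log2 fold change was 0.94 ± 0.30, adjusted p = 0.0476. That 1 gene is 2.70% of the 37, against 14.8% of all tested genes that rose, and 0 fell, against 11.7% of all. At an unadjusted p under 0.05, 12 of the 37 passed, against 4863 of the 12210.

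The counts over the 37 depended on the scaling here. With upper quartile scaling 0 rose and 2 fell, against 12.2% and 15.8% of all genes. With total counts 1 rose and 1 fell, against 11.5% and 13.8% of all. The median of all genes moved from -0.03 to -0.25 and -0.22 under these scalings. The call of Iars held in 10 of 17 alternatives. It was lost with upper quartile scaling (adjusted p = 0.0832), with total counts (0.0891), with no filter (0.0592) and without either DSg library (0.083 and 0.151) or either Spc library (0.299 and 0.38).

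A further 9 genes had an adjusted p between 0.0504 and 0.1, and 8 of the 10 complex genes lay above 0, with a median of 0.41. With upper quartile or total-count scaling it was also 8 of 10, with medians of 0.22 and 0.27. Aimp1 had 168 and 192 CPM in Spc, against 112 and 55.2 CPM in DSg (1.11 ± 0.38, adjusted p = 0.0622). Its groups did not overlap, and it passed in 10 of 17 alternatives. Qars had 189.8 and 186 CPM in Spc, against 118 and 78.1 CPM in DSg (0.94 ± 0.31, adjusted p = 0.0538), with both Spc libraries above both DSg libraries, and it passed in 9. Kars had 351 and 367 CPM in Spc, against 239 and 155 CPM in DSg (0.86 ± 0.32, adjusted p = 0.0743).

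Outside the complex, Nars had 385 and 421 CPM in Spc, against 234 and 202 CPM in DSg (0.89 ± 0.29, adjusted p = 0.0504), and Cars, the cytosolic cysteinyl enzyme, had 96.0 and 103 CPM in Spc, against 64.7 and 43.4 CPM in DSg (0.88 ± 0.33, adjusted p = 0.0778). Neither pair of groups overlapped. Sars had 360.1 and 440.0 CPM in Spc, against 197 and 213 CPM in DSg (0.96 ± 0.41, adjusted p = 0.111). Aars differed by 0.36 and Gars by 0.02 (adjusted p = 0.365 and 0.974), and Gars turned to -0.18 with upper quartile scaling.

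The mitochondrial genes had a median of -0.35, with 5 above 0 and 10 below (4 and 11 under either of those scalings), and none passed. Cars2 had 7.29 and 5.22 CPM in Spc, against 19.0 and 12.7 CPM in DSg (-1.32 ± 0.44, adjusted p = 0.053), and Pars2 11.8 and 10.0 CPM in Spc, against 20.2 and 25.9 CPM in DSg (-1.08 ± 0.41, adjusted p = 0.0812). For both, the Spc libraries lay below the DSg libraries. Tars2 had 92.8 and 78.8 CPM in Spc, against 36.0 and 49.0 CPM in DSg (1.01 ± 0.34, adjusted p = 0.059), and Rars2 56.8 and 46.6 CPM in Spc, against 27.5 and 23.4 CPM in DSg (1.02 ± 0.38, adjusted p = 0.0786). For both, the Spc libraries lay above. Wars2 differed by -0.97 ± 0.40, adjusted p = 0.105, and Lars2 by -0.74 ± 0.34, adjusted p = 0.139.

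Over the 37 genes, Spc lay above DSg in both libraries of each in 14 (37.8%), against 36.6% of all tested genes, and below in 13 (35.1%), against 34.6% of all. The comparisons of Spc with USg and with DSg share the Spc libraries, so their values are not independent.

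The median size of the log2 fold change was 0.385 in DSg against USg, 0.653 in Spc against USg and 0.570 in Spc against DSg, compared with 0.530, 0.955 and 0.850 over all tested genes in these comparisons. Past 2-fold in either direction were 5 of the 37 (13.5%), 7 (18.9%) and 5 (13.5%), against 24.7%, 48.1% and 43.5% of all. The median SE was about 0.34 for the 37 and about 0.43 for all genes. Expression level was not matched in this description.

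**Figure D4:**
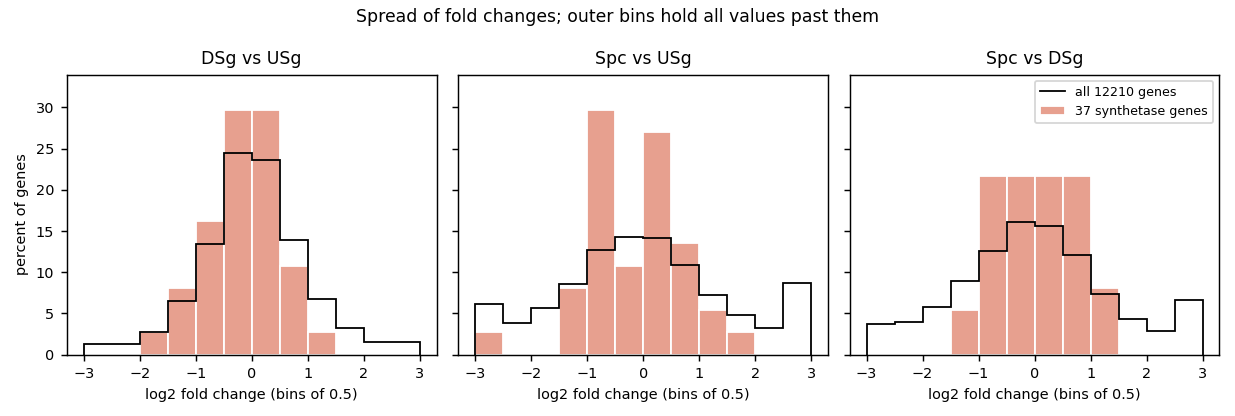
Percent of genes (y axis) by log2 fold change in bins of 0.5 (x axis) for the 37 synthetase genes (filled bars) and all 12210 tested genes (black outline), by comparison, with the outer bins holding all values past them. In DSg against USg the tallest bars lie on either side of 0 (29.7% each). In Spc against USg the tallest spans -1 to -0.5 (29.7%), and in Spc against DSg the bars from -1 to 1 are equal (21.6% each). Past 2-fold lie 18.9% of the 37 against 48.1% of all genes in Spc against USg.

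The cytosolic and the mitochondrial enzyme for the same amino acid were then set against each other within each library, as a ratio of raw counts that needs no scaling between libraries. This comparison was chosen after the values had been seen. For 12 amino acids both genes were among the 37. With 2 libraries against 2 the smallest exact two-sided permutation p is 0.333, so these ratios are given as values. Cysteine gave the widest difference, 6.44-fold between the geometric means of Spc and USg. Cars stood at 1.85 and 3.36 times Cars2 in USg, 3.4 and 3.43 times in DSg and 13.2 and 19.7 times in Spc. For tryptophan, Wars stood at 5.94 and 7.7 times Wars2 in USg, 7.72 and 11.3 times in DSg and 21.5 and 30.3 times in Spc. Both ratios were higher in Spc, with no overlap.

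Arginine and threonine went the other way. Rars stood at 10.5 and 14.5 times Rars2 in USg, 7.43 and 5.18 times in DSg and 1.8 and 2.2 times in Spc, so the 3 groups formed separate steps. Tars stood at 7.25 and 4.79 times Tars2 in USg, 7.48 and 4.51 times in DSg and 2.01 and 2.86 times in Spc. For histidine the ratio of Hars to Hars2 was 2.17 and 1.48 in DSg, against 2.5 and 4.4 in USg. Over the 12 pairs, the ratio was higher in Spc than in USg in 6, lower in 3 and overlapped in 3. Against DSg it was higher in Spc in 6, lower in 4 and overlapped in 2. In DSg against USg it was higher in 2, lower in 4 and overlapped in 6. Without overlap, 37.1% of all tested genes were higher and 35.3% lower in Spc than in USg. These shares were 36.6% and 34.6% in Spc against DSg and 21.2% and 21.1% in DSg against USg. Ratios of other gene pairs were not examined, so the counts are no result about the 12 pairs.

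Farsa and Farsb are the subunits of the heterotetrameric cytosolic phenylalanyl enzyme. Farsa stood at 0.88 and 1.65 times Farsb in USg, 0.517 and 0.612 times in DSg and 0.377 and 0.362 times in Spc. The 3 groups did not overlap. For the scaffolds, Aimp1 stood at 1.52 and 0.423 times Aimp2 in USg, 1.31 and 1.11 times in DSg and 1.75 and 2.43 times in Spc. There the USg libraries spanned the DSg values, and both Spc libraries lay above all others. In GRCr8 Aimp2 overlaps Eif2ak1, so its counts are uncertain.

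**Figure D5:**
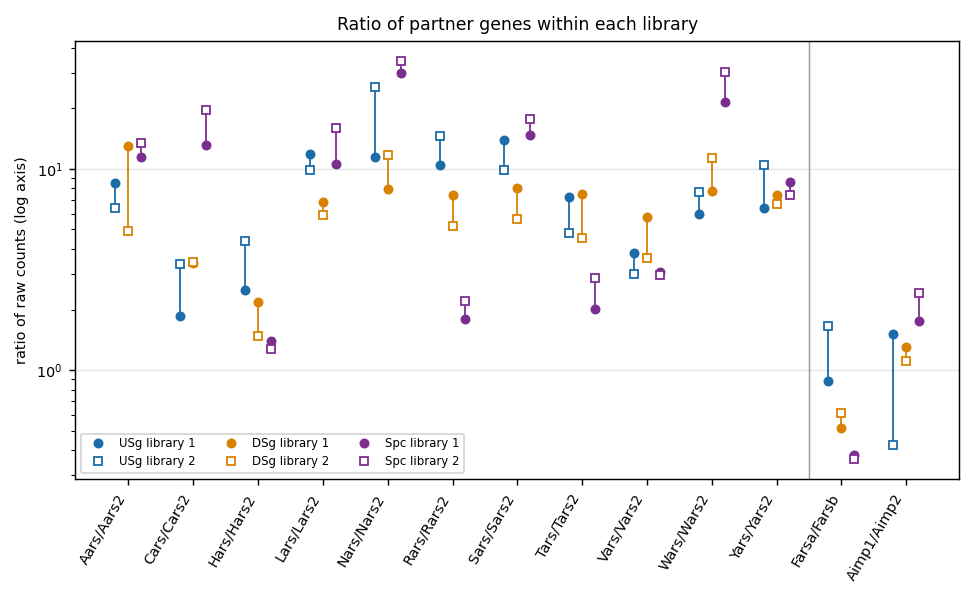
Ratio of raw counts (log axis) of the cytosolic to the mitochondrial gene for 11 of the 12 amino acids, and of Farsa to Farsb and Aimp1 to Aimp2 right of the grey line, in each library of USg (blue), DSg (orange) and Spc (purple). Cars over Cars2 reaches 13.2 and 19.7 in Spc, whereas Rars over Rars2 stands at 1.8 and 2.2 there.

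The 7 genes whose promoter holds the C/EBP-ATF element summed to 1351 and 1593 CPM in USg, 1341 and 1053 CPM in DSg and 1489 and 1599 CPM in Spc. None of the 7 passed in DSg against USg, where their median log2 difference was -0.31, against -0.40 for the 12 cytosolic genes with a promoter but no match. None passed in Spc against USg, with medians of 0.10 and 0.03. In Spc against DSg 1 of the 7 passed (Iars), with medians of 0.36 and 0.32. In all 3 comparisons the medians of genes with and without the element were thus within 0.1 of each other.

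Other targets of ATF4, a list of 25 genes with ATF4 itself, are given as log2 fold changes ± SE. In Spc against USg 5 rose (20%) and 5 fell (20%), near the 17.9% and 16.6% of all tested genes. Slc7a11, the cystine carrier, rose by 3.48 ± 0.57, adjusted p = 0.00219, Atf3, another stress factor, by 3.27 ± 0.41, adjusted p = 0.000637, and Ddit3, which codes for CHOP, by 2.12 ± 0.34, adjusted p = 0.00184. Asns, asparagine synthetase, rose by 2.06 ± 0.35, adjusted p = 0.00231. The 5 that fell were Gpt2, an alanine transaminase (-1.62), Shmt2, Phgdh and Psat1 of serine and glycine metabolism (-1.51, -1.50 and -1.34) and Eif4ebp1, an inhibitor of translation initiation (-1.31), with adjusted p from 0.0164 to 0.0338. The median over the 25 was 0.02. In Spc against DSg 7 rose (28%) and 0 fell, against 14.8% and 11.7% of all tested genes, among them Atf4 with 372 and 310.5 CPM in Spc, against 185 and 122 CPM in DSg (1.15 ± 0.35, adjusted p = 0.0413). Slc7a11 rose there by 2.86 ± 0.55, adjusted p = 0.00633, Ddit3 by 2.27 ± 0.34, adjusted p = 0.00214 and Asns by 1.19 ± 0.33, adjusted p = 0.03. In DSg against USg none of the 25 passed, with Atf4 at -0.93 and Asns at 0.88 (adjusted p = 0.205 and 0.216). Of the 12 synthetases known as ATF4 targets, 0 passed in DSg against USg, 0 in Spc against USg and 1, Iars, in Spc against DSg, with medians of -0.20, 0.19 and 0.32. Of all tested genes, 0.565% rose and 1.92% fell in DSg against USg, 17.9% and 16.6% in Spc against USg, and 14.8% and 11.7% in Spc against DSg. Mars, the methionyl synthetase, overlaps Ddit3 in GRCr8, so reads shared by them cannot be told apart. Mars differed by -0.51 in Spc against USg and by 0.25 in Spc against DSg (adjusted p = 0.233 and 0.583).

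Of 13 other genes of tRNA charging, editing and amidation, 0 passed in DSg against USg. In Spc against USg 3 rose (23.1%) and 2 fell (15.4%), against 17.9% and 16.6% of all tested genes. Sephs2, which makes selenophosphate for selenocysteine, had 139.5 and 144 CPM in Spc, against 22.0 and 11.6 CPM in USg (3.10 ± 0.39, adjusted p = 0.000684). Gatc, a subunit of the mitochondrial amidotransferase that makes glutaminyl-tRNA, rose by 3.01 ± 0.60, adjusted p = 0.00549, and Dtd2, a D-aminoacyl-tRNA deacylase, fell by a log2 value of 1.89 ± 0.42, adjusted p = 0.00882. In Spc against DSg, Sephs2 was the 1 gene of the 13 that passed, with 56.6 and 50.9 CPM in DSg (adjusted p = 0.0221). Eef1e1, the other scaffold of the complex, differed by -0.16 in DSg against USg, 0.03 in Spc against USg and 0.19 in Spc against DSg, with adjusted p of 0.848, 0.957 and 0.73.

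Of 35 genes of tRNA maturation, modification and export, 0 passed in DSg against USg. In Spc against USg 7 fell (20%) and 0 rose, against 16.6% and 17.9% of all tested genes, with a median log2 fold change over the list of -0.49. Among the 7, Pop1, a protein of RNase P that trims the 5′ end of tRNA precursors, had 15.6 and 17.9 CPM in Spc, against 71.8 and 57.7 CPM in USg (-1.95 ± 0.33, adjusted p = 0.00236). Ctu1, which thiolates wobble uridines, differed by -1.84 ± 0.55, adjusted p = 0.0306, and Wdr4, a subunit of a tRNA methyltransferase, by -1.75 ± 0.50, adjusted p = 0.0266. In Spc against DSg 4 fell (11.4%) and 1 rose (2.86%), against 11.7% and 14.8% of all. Pop1 differed by -2.19 ± 0.33, adjusted p = 0.00215. Elac2, the RNase Z that trims the 3′ end, had 60.3 and 65.1 CPM in Spc, against 208 and 142 CPM in DSg (-1.48 ± 0.31, adjusted p = 0.00977), and Trmt10a, a guanosine methyltransferase, rose by 1.41 ± 0.42, adjusted p = 0.0363.

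RNA polymerase III, which transcribes tRNA genes, was followed through 20 genes. None passed in DSg against USg, 2 rose (10%) and 1 fell (5%) in Spc against USg, where 17.9% and 16.6% of all tested genes did, and 1 rose (5%) and 2 fell (10%) in Spc against DSg, where 14.8% and 11.7% did. Polr3gl and Polr3g are alternative forms of 1 subunit. Polr3gl had 102 and 147 CPM in Spc, against 20.2 and 19.7 CPM in DSg (2.64 ± 0.49, adjusted p = 0.0054), whereas Polr3g had 23.6 and 31.6 CPM in Spc, against 80.8 and 107 CPM in DSg (-1.76 ± 0.42, adjusted p = 0.0158). The groups did not overlap for either gene. Polr3gl also rose in Spc against USg, by 2.16 ± 0.47, adjusted p = 0.00839, with Bdp1, a subunit of initiation factor TFIIIB, at 1.10 ± 0.32, adjusted p = 0.0267 and Gtf3c6, of TFIIIC, at -1.32 ± 0.36, adjusted p = 0.0214. Polr3f, another subunit of the polymerase, differed by -1.56 ± 0.37, adjusted p = 0.0158 in Spc against DSg.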

How the data were processed

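RNA was measured in 6 libraries, 2 each of USg, DSg and Spc. The authors deposited raw counts of reads by gene symbol, with no normalization: the values are whole and the columns differ in their totals. The submitters' processing notes name edgeR 3.2.4, featureCounts, Subread 1.4.6, STAR 2.5.3a, HOMER, Picard 1.127 and Bowtie2 2.2.3, and builds rn5 and rn6. Which of them made the counts, with what annotation and strand setting, is not given in the sources used here; reads of overlapping genes are therefore uncertain.

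The counts were scaled with TMM factors, filtered with filterByExpr (minimum count 10, minimum total 15) and tested by quasi-likelihood in edgeR 4.0.16 under R 4.3.3. All 6 libraries entered 1 fit with 3 residual degrees of freedom. Benjamini-Hochberg adjustment ran over 12210 genes, with a threshold of 0.05 and two-sided tests. Fold changes are given on the log2 scale ± SE, with the SE taken as their size divided by the root of the F statistic. The scripts were tested on simulated data. DESeq2 1.42.0 and limma-voom (limma 3.58.1) were alternatives.

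The genes, the lists and the tests were chosen with earlier results of these data known. Genes named with values are Aars, the 5 of highest mean CPM, those called in a comparison and the 2 highest and 2 lowest fold changes of each, with up to 3 called genes of each other list; further genes were chosen after their values were seen. Gene overlaps and promoters come from RefSeq GRCr8, whose build differs from the submitters'. Iars2 and Mars2 were not analysed here. The values of 1 of the 37 genes and 1 promoter stretch are not reported here; the gene stays in all counts and medians. With 2 libraries per group, a gene counted at about 20 reads, such as Ears2, has wide counting error.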

Additional observations from a re-analysis of the deposited data

How the results depend on the processing

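Each of the 111 fold changes of the 37 genes was recomputed in up to 17 alternatives. The sign differed in at least 1 alternative for 32 of them, and reached the threshold with the other sign in 1: Hars in DSg against USg stood at -0.56 (adjusted p = 0.0471), against 0.09 in the analysis as reported, without the first USg and DSg libraries together, an alternative added after the data were seen. Cars2 and Rars2 in Spc against USg passed in all 17, with log2 ranges of -2.84 to -2.29 and 1.52 to 2.32. Qars in DSg against USg passed in 14 of 17. The test against a 2-fold change is not among these 17, and Qars did not pass it.

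In DSg against USg, where 0 rose and 1 fell, the fit of 4 libraries and the test against a 2-fold change gave 0 lower. Of all genes, 0.733% and 0.319% were lower in these. No filter gave 3 lower, against 5.1% of all genes in that fit. With single libraries left out, the median log2 difference of the 37 ran from -0.38 to 0.02. In Spc against USg, where 2 rose and 3 fell, the 2-fold test gave 1 higher and 1 lower (9.93% and 7.89% of all genes). Upper quartile scaling and the filter of 5 CPM gave 4 lower (17.7% and 18.4% of all). The fit of 4 libraries and limma-voom also gave 4 lower (18.3% and 16.7%). No filter and DESeq2 gave 2 lower (12.8% and 17.4%). The median of the 37 ran from -0.255 to 0.105 there with single libraries left out. In Spc against DSg, where 1 rose and 0 fell, DESeq2 gave 4 higher and limma-voom 6, against 16% and 15.5% of all genes. No filter gave 3 higher (13.4% of all genes). The filter of 5 CPM gave 3 higher with 1 lower (16.2% and 14% of all). The fit of 4 libraries gave 9 with 2 lower (20.9% and 18.4% of all genes in that fit). Upper quartile scaling gave 0 with 2 lower (12.2% and 15.8% of all) and total counts 1 with 1 lower (11.5% and 13.8%). The 2-fold test gave 0 (7.56% of all genes higher and 4.04% lower). Leaving out single libraries there gave 0 to 7 higher and 0 to 2 lower, against 8.67% to 18.9% and 3.46% to 12.9% of all genes. The 7 higher and 2 lower came without either USg library. In those fits 17.9% and 18.9% of all genes were higher, and 12% and 12.9% lower. Without the first USg and DSg libraries together, the counts were 3 higher and 17 lower, 8 and 15, and 17 and 4 in the 3 comparisons in the same order, with 21.3% and 23.8%, 29.1% and 29.7%, and 29.3% and 29.8% of all tested genes called; the spread then comes from the Spc libraries alone, and the lone samples are assumed to vary like them.

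With the replicate block, counts were 0 higher and 1 lower in DSg against USg, 2 and 3 in Spc against USg, and 4 and 1 in Spc against DSg. Of all tested genes, 1.38% and 3.57%, 19.7% and 17.3%, and 16.9% and 12.7% were called in the same order. Libraries of the same number deviated with correlations of 0.25, -0.265 and 0.0105 for DSg and USg, Spc and USg, and Spc and DSg. The labels give no shared batch or day, so the numbers were not taken to pair the samples, although the first USg and DSg libraries share a high content of ribosomal RNA (12.4% in DSg and 7.81% in USg). Within edgeR, scaling by the method of the DESeq2 size factors (RLE) and leaving out ribosomal RNA changed no count. The DESeq2 fit itself did change counts, as given above. The lowest count of any of the 37 was 4, for Ears2 in the first USg library, where a 2-fold change is within counting error.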

Other observations

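Hars and Hars2 lie head to head in GRCr8. The 300-base promoter windows used here share 243 bases on opposite strands, and the transcript starts lie 144 bases apart, so the windows are largely the same DNA. Hars had 153 and 119.8 CPM in DSg, against 96.5 and 159.7 CPM in USg (0.09 ± 0.34, adjusted p = 0.916), with overlapping groups, whereas Hars2 had 70.7 and 80.8 CPM in DSg, against 38.6 and 36.3 CPM in USg, with no overlap. In Spc, Hars had 93.2 and 83.8 CPM and Hars2 66.6 and 65.3 CPM. Neither gene passed the test in any comparison, and a difference between them was not tested beyond the ratio of counts.

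Wars, the cytosolic tryptophanyl enzyme, had 207 and 224 CPM in Spc, against 112 and 162 CPM in USg (0.65 ± 0.31, adjusted p = 0.131), while Wars2 was lower in Spc. Tarsl2, the second cytosolic threonyl enzyme, which the symbol rule does not take in, had 15.3 and 9.69 CPM in DSg, against 7.33 and 2.49 CPM in USg (1.41 ± 0.62, adjusted p = 0.259). Xpot, the export carrier of mature tRNA, had 71.1 and 49.3 CPM in DSg, against 197 and 97.9 CPM in USg (-1.29 ± 0.40, adjusted p = 0.133), with both DSg libraries below both USg libraries. Trib3, an ATF4 target, had 2 and 4 raw reads in USg, 1 and 11 in DSg and 24 and 18 in Spc, and passed in no comparison (Spc against USg 2.51 ± 1.00, adjusted p = 0.0826).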
